A study of Mus musculus with 40 samples.

Results

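The prefrontal cortex of mice that carry alanine (Ala) or threonine (Thr) at position 92 of the type 2 deiodinase was profiled on 8 microarrays, out of 40 arrays that covered 5 brain regions. The 8 arrays are those whose labels name the prefrontal cortex. There were 4 from mice with the Ala allele, labelled Ala92D2HY and numbered 25 to 28, and 4 from mice with the Thr allele, labelled Thr92D2HY and numbered 29 to 32. Per the labels, all mice were 8 to 10 weeks old and of the background strain written as C56BL/6. They were housed at 22 °C under a 12 h light and dark cycle on a chow diet, and total RNA was extracted with Trizol. The labels give no treatment and tie no array to an animal, litter or dissection, so every p-value rests on array-to-array spread alone, part or all of which may be technical.

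Dio2 encodes the type 2 deiodinase, an enzyme of the endoplasmic reticulum that removes an iodine atom from the prohormone thyroxine to make the active thyroid hormone T3. In brain it is made mainly by astrocytes and tanycytes, and the T3 reaches neurons through membrane transporters, where it binds nuclear receptors that turn genes on or off. The enzyme is short-lived, because it is ubiquitinated and degraded by the proteasome. The title of the series ties the exchange at residue 92 to stress of the endoplasmic reticulum and to low thyroid hormone signalling in brain, and the comparison asks how gene expression in the prefrontal cortex differs between the alleles.

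Values are log2 signals, so a difference of 1 is a 2-fold change, and every difference is Ala minus Thr with its standard error (SE). Of 19505 named genes, 13599 passed a filter on low signal and were tested with limma, a linear model with moderated variances, and 5906 were too dim. The median signal of the negative control probes was 5.86 over the 8 arrays, and 10537 tested genes had a mean above it. With 4 arrays per genotype, precision is set by their number.

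The level of Dio2 RNA did not separate the genotypes. The signal was 9.61, 10.01, 9.66 and 10.16 on the Ala arrays, against 9.79, 9.91, 10.03 and 10.08 on the Thr arrays. The Ala values span a wider range that contains all the Thr values. Dio2 averaged 9.86 ± 0.27 in Ala and 9.95 ± 0.13 in Thr (SD, n = 4 each), a difference of -0.09 ± 0.19 with a 95% interval of -0.50 to 0.32 (two-sided exact permutation p = 0.571, where the smallest p that 4 against 4 arrays allow is 0.0286). The probes read the amount of RNA and not the codon of residue 92, so this value checks no genotype label. Set against the other regions, Dio2 was at its highest in the prefrontal cortex. Its means there were followed by 9.30 in Ala and 9.23 in Thr hippocampus, 9.27 in Ala and 9.05 in Thr striatum, 8.72 in Ala and 8.40 in Thr amygdala, and 7.98 in Ala and 8.35 in Thr cerebellum. The prefrontal cortex exceeded the mean of the other regions by 1.12 ± 0.12, which passed the test for regions, whereas the means of hippocampus and striatum lay within the spread of their arrays of each other.

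Across all genes, no gene passed a Benjamini-Hochberg adjusted p of 0.05 in limma (0 of 13599, or 0%), and the smallest adjusted p was 1.00. At an unadjusted p under 0.05 there were 257 genes (1.89% of those tested), 128 higher in Ala (0.941%) and 129 lower (0.949%), where 680 would fall by chance. The differences were small and evenly divided, with 6951 above 0 (51.1%), 6648 below 0 (48.9%), and a median absolute difference of 0.13. The 5th and 95th percentiles were -0.32 and 0.33. The median 95% interval of a gene extended 0.47 to each side, and for 12925 of the 13599 genes the whole interval lay within 1 log2 unit of 0. A p that misses the threshold does not show that levels were equal, and smaller differences fall inside intervals of this width.

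**Figure D1:**
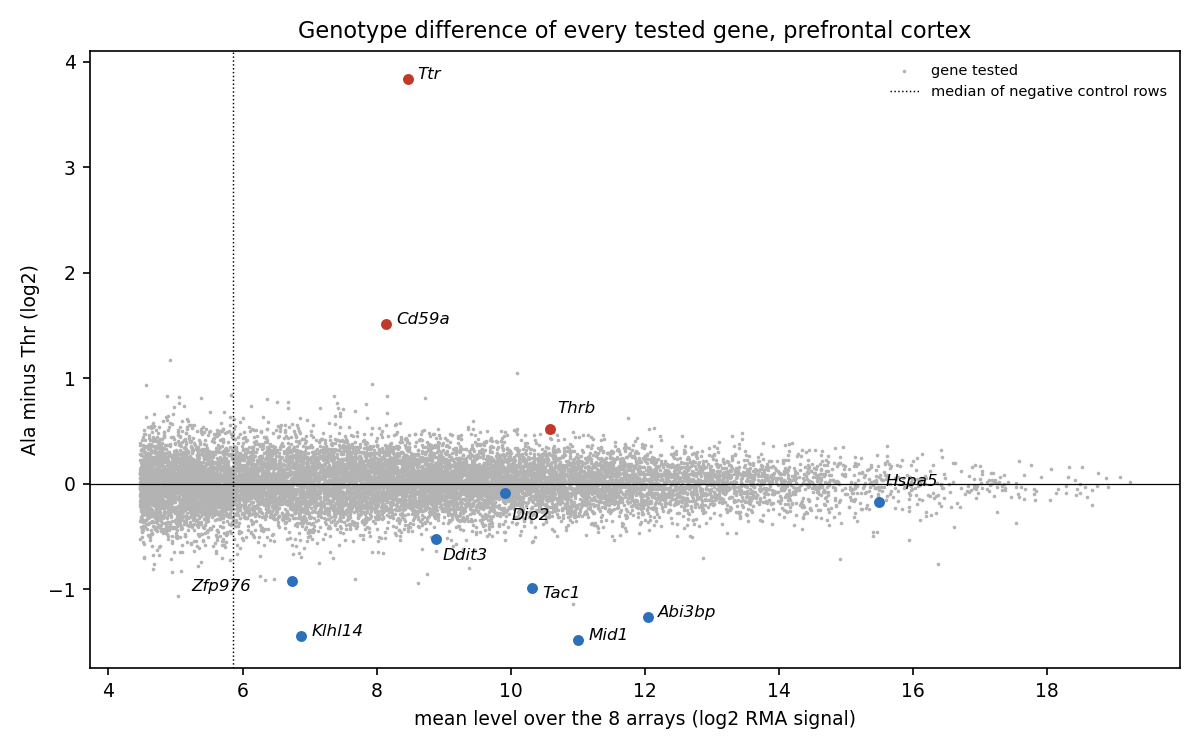
Each point is 1 of the 13599 tested genes, with its mean signal over the 8 arrays (log2) on the x axis and its Ala minus Thr difference (log2) on the y axis; coloured points are named genes, red above and blue below 0, and the dotted line is the negative control median of 5.86. Nearly all genes lie within 1 log2 unit of 0, and Ttr at 3.84 stands farthest from it.

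Only 9 genes (0.0662% of those tested) differed by 1 log2 unit or more, 4 higher (0.0294%) and 5 lower (0.0368%), and none of them was called. Ttr encodes transthyretin, a carrier of thyroxine in blood and cerebrospinal fluid that is made by choroid plexus and liver. Its signal was 13.89, 8.48, 10.07 and 9.07 on the Ala arrays, against 7.12, 5.71, 7.59 and 5.75 on the Thr arrays. Every Ala array was above every Thr array, and Ala array 25 was by far the highest. The difference was 3.84 ± 0.87 (limma adjusted p = 1.00), and 2.67 without array 25.

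Other genes of the choroid plexus did not share the size of that difference. The choroid plexus list had 13 genes on the array, of which 11 had means under the negative control median, and the other 12 genes differed by -0.25 to 0.50. The folate receptor Folr1 was at 5.63 in Ala and 5.12 in Thr, the homeobox gene Otx2 at 4.21 in Ala and 4.12 in Thr, and the potassium channel subunit Kcne2 at 3.66 in Ala and 3.44 in Thr. These 3 defining markers were under the negative control median in both genotypes. Besides Ttr, only Kcnj13, another potassium channel gene, had a mean above it, at 7.05 in Ala and 6.86 in Thr. Without Ttr, the summed signal (log2) of the other 12 choroid plexus genes ran from 8.73 to 9.18 in Ala and from 8.67 to 9.11 in Thr, and the ranges overlapped. The list of blood and liver genes also holds Ttr, and the sum of its other 11 genes ran from 8.01 to 9.94 in Ala and from 7.64 to 8.76 in Thr. With Ttr included, the choroid plexus sum on Ala array 25 was 13.95, which is mostly Ttr itself at 13.89. In bulk tissue, fewer cells of a type and less RNA per cell cannot be told apart.

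Cd59a, which encodes an inhibitor of the complement membrane attack complex, was at 9.38, 9.24, 8.78 and 8.20 on the Ala arrays, against 7.01, 8.31, 6.53 and 7.69 on the Thr arrays. Only the lowest Ala array and the highest Thr array overlapped. The difference was 1.51 ± 0.35 (limma adjusted p = 1.00). Mid1, the gene of a microtubule-associated ubiquitin ligase, ran the other way, at 9.10, 10.41, 10.41 and 11.14 in Ala, against 10.88, 12.40, 12.09 and 11.61 in Thr. Again a single Ala array lay above a single Thr array, and the difference was -1.48 ± 0.39. The zinc finger gene Zfp976 was at 6.15, 6.06, 6.96 and 5.93 in Ala, against 6.77, 7.36, 7.45 and 7.18 in Thr, with a difference of -0.92 ± 0.25. Leaving out any 1 array kept the sign of all 3, with differences of 1.23 to 1.82 for Cd59a, -1.77 to -1.09 for Mid1 and -1.15 to -0.80 for Zfp976.

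Klhl14, a kelch-like gene, was at 6.77, 6.75, 5.97 and 5.13 on the Ala arrays, against 7.59, 8.67, 6.98 and 7.16 on the Thr arrays. All Ala values were below all Thr values, and the difference was -1.45 ± 0.40. Abi3bp, which encodes an extracellular matrix protein, was at 11.49, 12.61, 11.41 and 10.14 in Ala, against 13.18, 13.00, 12.12 and 12.40 in Thr. Here the groups overlapped through Ala array 26, and the difference was -1.26 ± 0.40. The other 4 of the 9 genes, Eps8l1 (1.17 ± 0.38), Lypd1 (1.05 ± 0.48), Dct (-1.06 ± 0.53) and Ndst4 (-1.14 ± 0.59), overlapped between genotypes, and Eps8l1 and Dct had means under the negative control median. Several of the 9 reached 1 through single arrays. The difference of Lypd1 was 0.59 without Thr array 32, of Dct -0.54 without Thr array 30, of Ndst4 -0.69 without Ala array 28 and of Abi3bp -0.84 without Ala array 28.

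Groups that did not overlap were found for 206 genes (1.51%), 115 with every Ala array above (0.846%) and 91 with every Ala array below (0.669%). For 2 of them, Ttr and Klhl14, the difference reached 1. Several of the 12 lowest-p genes with negative differences were of this kind with smaller changes. Pdpn, which encodes the membrane glycoprotein podoplanin, was at 6.88, 6.75, 7.24 and 7.06 in Ala, against 7.64, 7.61, 7.78 and 7.50 in Thr, a difference of -0.65 ± 0.19. Agmo, which encodes an enzyme that cleaves ether lipids, was at 8.47, 8.74, 8.42 and 8.66 in Ala, against 8.91, 9.34, 9.42 and 9.14 in Thr, a difference of -0.63 ± 0.19. The replicates of both were tight, and the gap between the groups was narrow.

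The oxytocin receptor gene Oxtr was at 7.01, 7.18, 7.11 and 6.67 in Ala, against 7.36, 7.82, 8.12 and 7.46 in Thr, a difference of -0.70 ± 0.22, also without overlap. Kcna5, a voltage-gated potassium channel gene, differed by -0.58 ± 0.19 with no overlap. Tac1, the precursor gene of substance P, was at 10.06, 10.56, 8.86 and 9.83 in Ala, against 11.22, 11.20, 10.49 and 10.34 in Thr, a difference of -0.98 ± 0.32. Only Ala array 26 reached into the Thr range. Tac1 is also abundant in striatal medium spiny neurons. The striatum list, which holds Tac1, had a summed signal (log2) of 14.53 to 16.03 in Ala and 14.15 to 15.66 in Thr. The mean of the list relative to the 8-array mean ran from -0.24 to 0.22 in Ala and from -0.31 to 0.26 in Thr. These measures ranked the arrays differently, since Ala array 27 had the highest sum, 16.03, and the lowest mean of the Ala arrays, -0.24. With the mean of that list, which holds Tac1 itself, as a covariate, no gene was called. Across all alternatives that recomputed it, that fit included, the Tac1 difference ran from -1.23 to -0.53. Because Tac1 is part of the covariate, the part of striatal RNA in its difference was not tested. Rgsl1 and Pdcd10, the second of which encodes a protein linked to cerebral cavernous malformations, differed by -0.91 ± 0.29 and -0.80 ± 0.29 with overlap, and Pdcd10 by -0.51 without Thr array 30. All of these genes had a limma adjusted p of 1.00.

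The 12 lowest-p genes with positive differences were, after Ttr and Cd59a, of modest size. Bmp3, a bone morphogenetic protein gene, was at 9.06, 9.09, 9.25 and 9.27 in Ala, against 8.62, 8.72, 8.45 and 8.81 in Thr, a difference of 0.52 ± 0.18. Plek, which encodes pleckstrin, was nearly constant in Ala at 7.28, 7.24, 7.21 and 7.30, against 6.55, 6.74, 6.19 and 7.13 in Thr, a difference of 0.60 ± 0.22. Both were without overlap. Npr3, the clearance receptor of natriuretic peptides, differed by 0.63 ± 0.21. Farsa, a subunit of phenylalanyl-tRNA synthetase, differed by 0.62 ± 0.21, and in both of these genes every Ala array was above every Thr array. The same held for Tceanc2 (0.72 ± 0.24), Zbed4 (0.61 ± 0.21) and the zinc finger gene Zfp354a (0.52 ± 0.19). Il1rapl2, of the interleukin-1 receptor family (0.84 ± 0.29), the clustered protocadherin gene Pcdhb13 (0.74 ± 0.27) and Pnma3 (0.69 ± 0.24) overlapped between the genotypes.

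**Figure D2:**
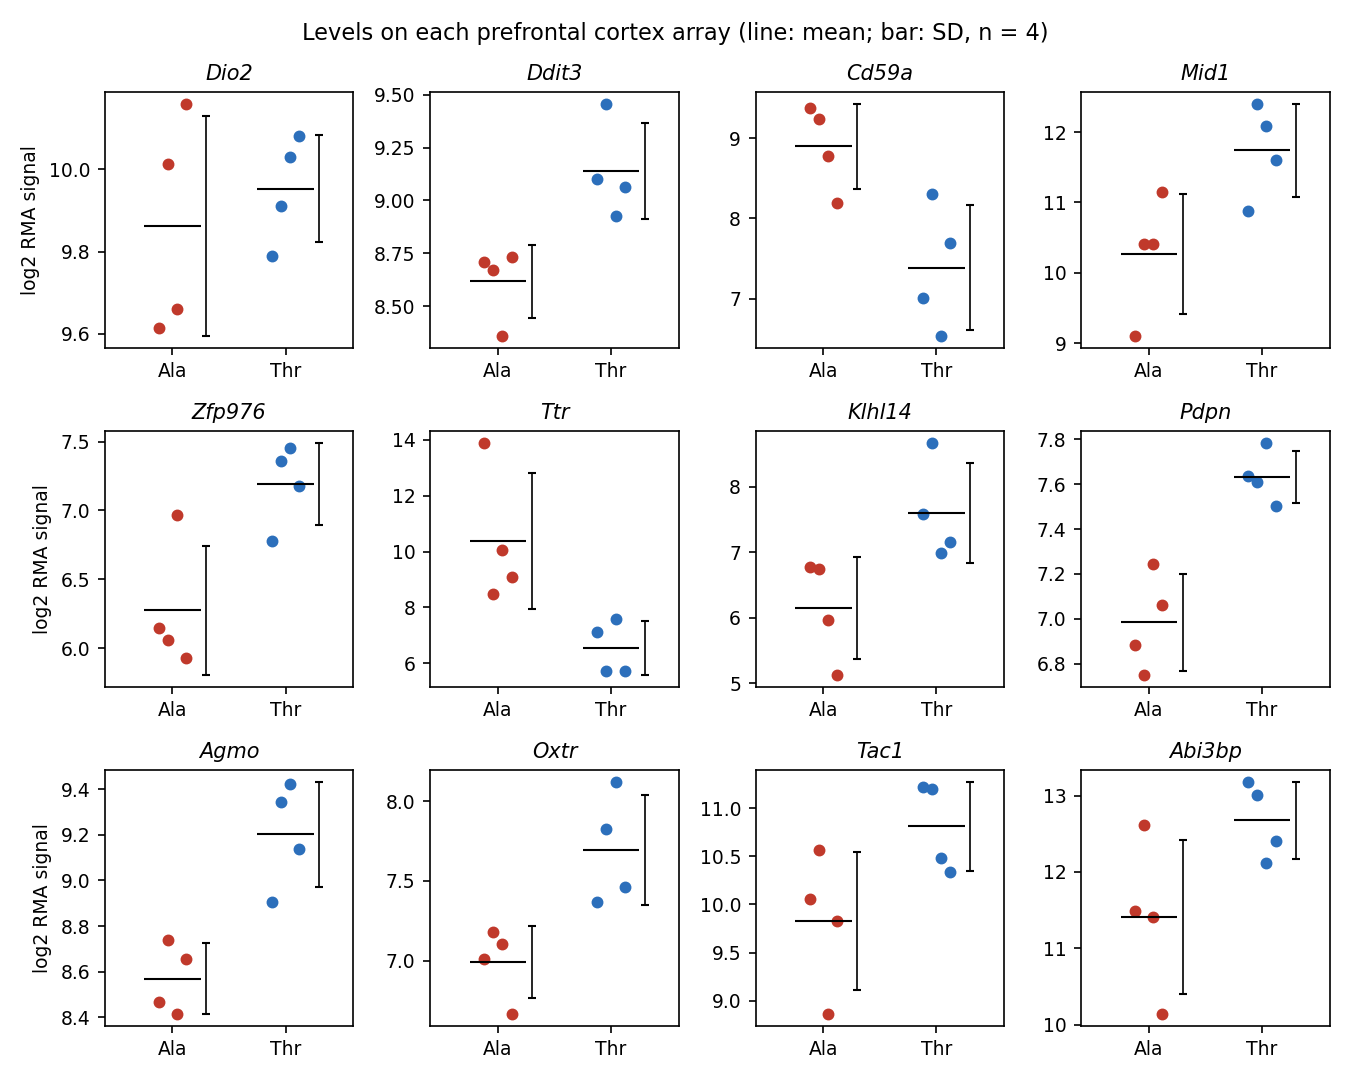
Signal (log2) of 12 genes on each array, with Ala in red on the left and Thr in blue on the right of each panel; horizontal lines are means and bars are SD (n = 4). Dio2 overlaps fully, Ddit3, Ttr, Klhl14, Pdpn, Agmo and Oxtr do not overlap, and Ala array 25 at 13.89 sets the top of the Ttr range. Each panel has its own y axis, which does not start at 0.

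The genes that carry thyroid hormone into cells and read it out were measured next. The 20 tested genes were Dio2, transporters, receptors, coregulators of receptors such as Ncoa1 and Hdac3, and a binding protein. Of these 20, 15 had positive and 5 negative differences, with a median of 0.12 against 0.01 for all genes, and 0 were called. Dio3, which encodes the deiodinase that inactivates T3, was under the filter, with means of 3.20 ± 0.25 for Ala and 3.29 ± 0.34 for Thr (SD, n = 4 each). The transporter gene Slco1c1 was even across arrays, at 12.38, 12.41, 12.27 and 12.31 in Ala, against 12.39, 12.25, 12.30 and 12.17 in Thr, a difference of 0.06 ± 0.16. Slc7a5, an amino acid transporter that can also carry thyroid hormone, was at 10.70, 10.75, 10.76 and 11.50 in Ala, against 10.47, 10.11, 10.60 and 10.67 in Thr. It was the 1 gene of the 20 whose groups did not overlap, against 1.51% of all genes. Its difference was 0.47 ± 0.22, and 0.28 without Ala array 28.

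The receptor gene Thra was among the stronger signals, at 14.72, 14.87, 14.21 and 14.31 in Ala, against 15.00, 14.20, 14.28 and 14.16 in Thr, a difference of 0.12 ± 0.22. Thrb, the other receptor gene, was at 10.79, 10.52, 10.12 and 11.97 in Ala, against 10.70, 9.78, 10.66 and 10.17 in Thr. Ala array 28 alone stood above the Thr range by more than 1 unit, and the difference was 0.52 ± 0.34 with a 95% interval of -0.21 to 1.25. Without Ala array 28 the difference of Thrb was 0.15, and without Thr array 30 it was 0.34. Crym, which encodes a cytosolic T3-binding protein, differed by 0.42 ± 0.44, the organic anion transporter gene Slco3a1 by 0.33 ± 0.29, and the retinoid X receptor gene Rxrb by 0.30 ± 0.24. Each of these also depended on single arrays, since leaving out 1 array gave 0.16 to 0.82 for Crym (lowest without Thr array 32, highest without Thr array 29). It gave 0.15 for Slco3a1 without Thr array 29 and 0.11 for Rxrb without Ala array 26.

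Genes that respond to T3 in brain were divided. Of 21 tested genes that T3 raises, 10 had positive and 11 negative differences, with a median of -0.03, and of 14 that it lowers, 7 had positive and 7 negative differences, with a median of 0.05. None was called, and no member of either list had groups that did not overlap, against 1.51% of all genes. Klf9, a T3-induced transcription factor gene, was at 13.00, 12.83, 12.81 and 13.41 in Ala, against 12.56, 13.00, 13.14 and 13.49 in Thr, a difference of -0.03 ± 0.22 with a 95% interval of -0.50 to 0.43. Hr, a corepressor gene induced by T3, had a mean under the negative control median and differed by -0.14 ± 0.21. Rasd2 and Pvalb, both induced by T3, had the lowest p and opposite signs, at 0.47 ± 0.27 and -0.43 ± 0.24, and Rasd2 was at 0.75 without Thr array 32. Cirbp, of the T3-repressed list, differed by 0.38 ± 0.26, and by 0.17 without Ala array 27. The whole 95% interval lay within 1 log2 unit of 0 for 19 of the 21 induced and 12 of the 14 repressed genes.

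The ubiquitin machinery described as acting on the deiodinase, 11 tested genes, had 6 positive and 5 negative differences and a median near 0 (0.005, or -0.006 and -0.025 under the other scalings). Wsb1, an adaptor of a ubiquitin ligase for the enzyme, differed by -0.22 ± 0.23, and Usp33, a deubiquitinase, by -0.05 ± 0.22. All 11 intervals lay within 1 log2 unit of 0.

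The unfolded protein response, set off when misfolded proteins build up in the endoplasmic reticulum, had 33 tested genes, 23 with positive and 10 with negative differences, a median of 0.09 and 0 called. Ddit3, which encodes CHOP, a transcription factor that is induced late in that response, had the lowest p of the list. It was at 8.71, 8.67, 8.36 and 8.73 on the Ala arrays, against 9.10, 9.46, 8.92 and 9.07 on the Thr arrays. All Ala arrays were below all Thr arrays, the difference was -0.52 ± 0.19 with a limma adjusted p of 1.00, and it was the 1 gene of the 33 without overlap, against 1.51% of all genes. Leaving out any 1 array gave -0.59 to -0.41. The array holds a second row for Ddit3, dimmer, that did not share the difference, with means of 7.59 in Ala and 7.45 in Thr, overlapping values and a difference of 0.15. The mean of both rows differed by -0.19.

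The chaperone gene Hspa5 was at 15.63, 15.07, 15.56 and 15.35 in Ala, against 15.47, 15.63, 15.73 and 15.45 in Thr, a difference of -0.17 ± 0.17. Xbp1, whose RNA is spliced by a sensor of the response, differed by -0.19 ± 0.17, and Atf4, the transcription factor gene upstream of Ddit3, by 0.09 ± 0.19. The single value per gene does not tell the spliced form of Xbp1 apart. Ero1b, an oxidase of protein folding (0.36 ± 0.21), Sel1l, of the degradation machinery (0.36 ± 0.22), and the sensor gene Atf6 (0.33 ± 0.21) had the lowest p among positive members. Without Thr array 30 Sel1l differed by 0.20, and without Thr array 32 Atf6 by 0.21. For 32 of the 33 genes the interval lay within 1 log2 unit of 0.

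**Figure D3:**
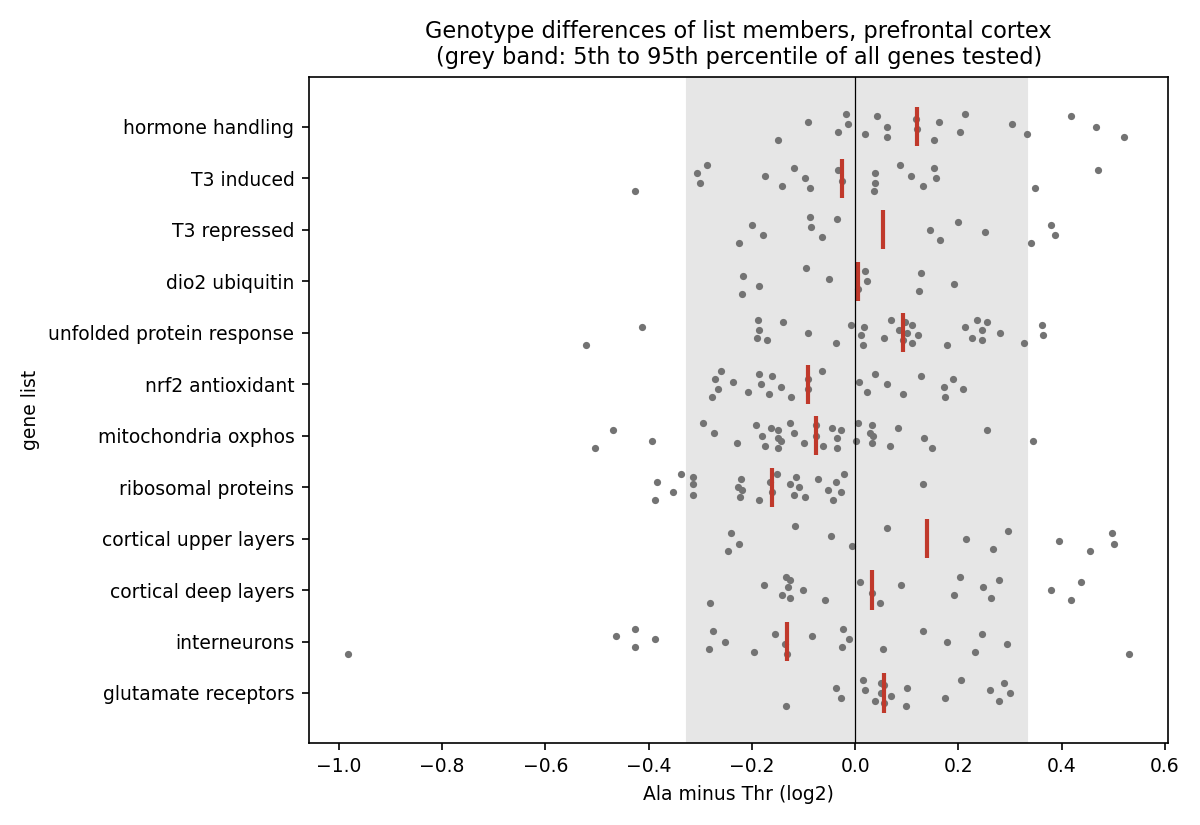
Ala minus Thr difference (log2) of each tested member of 12 gene lists, as grey points, with the median of each list as a red line; the grey band is the 5th to 95th percentile of all 13599 genes, -0.32 to 0.33. Every list median lies inside the band, and 26 of 27 ribosomal protein genes lie below 0.

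Antioxidant genes and NRF2 targets had 10 positive and 15 negative differences among 25, with a median of -0.09. The heme oxygenase gene Hmox1 differed by -0.27 ± 0.22 and the metallothionein gene Mt2 by -0.24 ± 0.18. Nuclear subunits of oxidative phosphorylation had 12 positive and 24 negative differences among 36, with a median of -0.08. Sdhc, a subunit of succinate dehydrogenase, was at 9.14, 9.01, 9.33 and 9.47 in Ala, against 9.59, 9.67, 9.73 and 9.53 in Thr, a difference of -0.39 ± 0.18 with no overlap. It was the 1 gene of the 36 without overlap, against 1.51% of all genes. Cox8a, a cytochrome c oxidase subunit, differed by -0.29 ± 0.18 with overlap, and by -0.16 without Thr array 30.

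Of 27 ribosomal protein genes, 26 had negative differences and 1 a positive one, with a median of -0.16, against 48.9% negative over all genes. None was called, and none had groups that did not overlap, against 1.51% of all genes. The mean of the list relative to the 8-array mean was 0.30, 0.12, -0.37 and -0.40 on the Ala arrays, against 0.30, 0.63, -0.28 and -0.31 on the Thr arrays. The arrays of each genotype thus fell into a high pair and a low pair, and Thr array 30 was the highest. Without Thr array 30 the median of the list was 0.02. Rpl19, for example, was at 14.77, 14.83, 14.44 and 14.17 in Ala, against 15.09, 15.74, 14.54 and 14.40 in Thr, a difference of -0.39 ± 0.27, and Rpl11 differed by -0.38 ± 0.31. Without Thr array 30 they differed by -0.12 and -0.16.

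Among neuronal genes, 14 tested markers of the upper cortical layers had 8 positive and 6 negative differences and a median of 0.14, and 21 markers of the deep layers had 12 positive and 9 negative and a median of 0.03. Lhx2, a homeobox gene of upper-layer neurons, was at 9.91, 10.04, 9.91 and 10.58 in Ala, against 9.66, 9.61, 9.43 and 9.74 in Thr, without overlap and with a difference of 0.50 ± 0.20. Otof (0.50 ± 0.29), Wfs1 (0.45 ± 0.26) and Cux2 (0.39 ± 0.21) followed it with overlap, Otof at 0.32 and Wfs1 at 0.21 without Thr array 30. The mean of Otof was under the negative control median. In the deep layers Sox5, a transcription factor gene, differed by 0.44 ± 0.22. Interneuron genes had 7 positive and 16 negative differences among 23, with a median of -0.13. After Tac1, the lowest p in that list belonged to the serotonin receptor gene Htr3a (-0.43 ± 0.23), the peptide gene Crh (-0.39 ± 0.21) and Pvalb.

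Glutamate receptor subunits had 16 positive and 3 negative differences among 19, with a median of 0.06, against 51.1% positive over all genes. Their list scores overlapped, from -0.03 to 0.12 in Ala and from -0.14 to 0.02 in Thr. Grm5, a metabotropic receptor gene, was at 12.29, 12.33, 12.20 and 12.05 in Ala, against 12.02, 11.94, 11.82 and 11.89 in Thr, a narrow gap with no overlap and a difference of 0.30 ± 0.16. Grm5 was the 1 gene of the 19 without overlap, against 1.51% of all genes. Grin2a, an NMDA receptor subunit, differed by 0.29 ± 0.20, and by 0.12 without Thr array 30. Monoamine receptor genes had 8 positive and 10 negative differences. Their lowest p belonged to the serotonin receptor gene Htr5a, at 0.40 ± 0.20 with overlap. The dopamine receptor gene Drd4 was the 1 gene of the 18 without overlap, against 1.51% of all genes. It differed by -0.33 ± 0.19 with a mean of 5.26, under the negative control median. The serotonin receptor gene Htr1b overlapped as well, at 0.54 ± 0.32, and at 0.25 without Ala array 28. In glia, 14 of 18 oligodendrocyte genes and 11 of 15 astrocyte genes had positive differences, against 51.1% of all genes, and the 14 microglia genes were divided evenly, 7 positive and 7 negative. The oligodendrocyte gene Opalin differed by 0.52 ± 0.29 (0.30 without Ala array 26), the astrocyte gene Aldh1l1 by 0.41 ± 0.21, and the microglia gene Aif1 by -0.49 ± 0.25 (-0.32 without Ala array 27). Without Ala array 26 the oligodendrocyte median was -0.10, against 0.13 with all arrays. Usp18, an interferon-induced protease gene with a mean under the negative control median, differed by -0.56 ± 0.20 without overlap.

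The labelled region was checked against its markers by setting the 8 arrays against the mean of the other 4 regions. At an adjusted p under 0.05 and a difference of at least 1, 493 genes were higher in prefrontal cortex (3.63%) and 252 lower (1.85%). Higher were 7 of 12 markers of forebrain excitatory neurons, 4 of 14 of the upper layers and 5 of 21 of the deep layers, among them Slc17a7, the vesicular glutamate transporter of cortical neurons, at 1.76 above the other regions. Lower were 9 of 11 markers of striatal neurons, 8 of 18 of oligodendrocytes and 5 of 8 of choroid plexus. Higher as well were 10 of 13 markers of the olfactory bulb and 11 of 23 of interneurons. Against these, 1 upper-layer marker, Calb1 (-2.32), and 1 interneuron marker, Pvalb (-1.74), were lower in prefrontal cortex.

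Olfactory genes also varied among the 8 arrays. The first principal component held 30.7% of the variance and the gene with the largest weight was Stoml3, known from olfactory sensory neurons. The negative control median was highest and lowest on the arrays at the ends of that component, and its part was not tested. It was 6.02 on Ala array 27 and 6.00 on Thr array 32, which had the highest scores (37.4 and 25.0), and 5.73 on Thr array 29, which had the lowest (-32.6). Between the ends the order did not hold, with 5.75 on Thr array 30 (score 5.58) and 5.94 on Ala array 28 (score -4.08). Stoml3 was at 9.74, 5.82, 11.23 and 11.74 on the Ala arrays, against 4.52, 9.52, 10.07 and 12.26 on the Thr arrays. Omp, the olfactory marker protein, ran from 3.53 to 6.38 in Ala and from 3.11 to 7.33 in Thr, with a mean under the negative control median. Th, the tyrosine hydroxylase of bulb interneurons, ran from 8.98 to 13.18 in Ala and from 9.07 to 12.65 in Thr. Both genotypes held high and low arrays. The olfactory bulb list score, the mean of its genes relative to the 8-array mean, was 0.18, -1.16, 1.04 and -0.51 in Ala, against -0.75, 0.53, -0.04 and 0.69 in Thr. With that score as a covariate no gene was called, and Cd59a, Mid1, Klhl14 and Ddit3 differed by 1.56, -1.47, -1.44 and -0.53. No score of meningeal or mural genes was fitted as a covariate. Across all alternatives that recomputed it, the Klhl14 difference ran from -1.65 to -1.03.

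Other genes marked single arrays. The activity-induced gene Nr4a1 was at 12.17, 7.98, 12.13 and 12.77 in Ala, against 11.35, 11.69, 11.56 and 12.59 in Thr. Npas4, another activity-induced gene, was at 8.13, 5.38, 7.29 and 10.25 in Ala, against 8.71, 7.59, 8.51 and 8.87 in Thr. Ala array 26 was the lowest of the 8 for both. The list score of 30 immediate early genes was -1.11 on that array and 0.73 on Ala array 28. Smooth muscle and meningeal genes were high on Thr array 30, where Acta2 reached 11.13, Tagln 8.22 and Ogn 11.63, and they led the second component with 20.2% of the variance. The endothelial and mural list score on Thr array 30 was 0.63. Ndst4 and Klhl14 also had large weights on the second component, at ranks 5 and 7. Klhl14 was highest on Thr array 30 (8.67) and lowest on Ala array 28 (5.13). Those arrays had the highest and lowest scores on that component (39.7 and -21.6). The part of this shared variation in the Klhl14 difference was not tested.

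**Figure D4:**
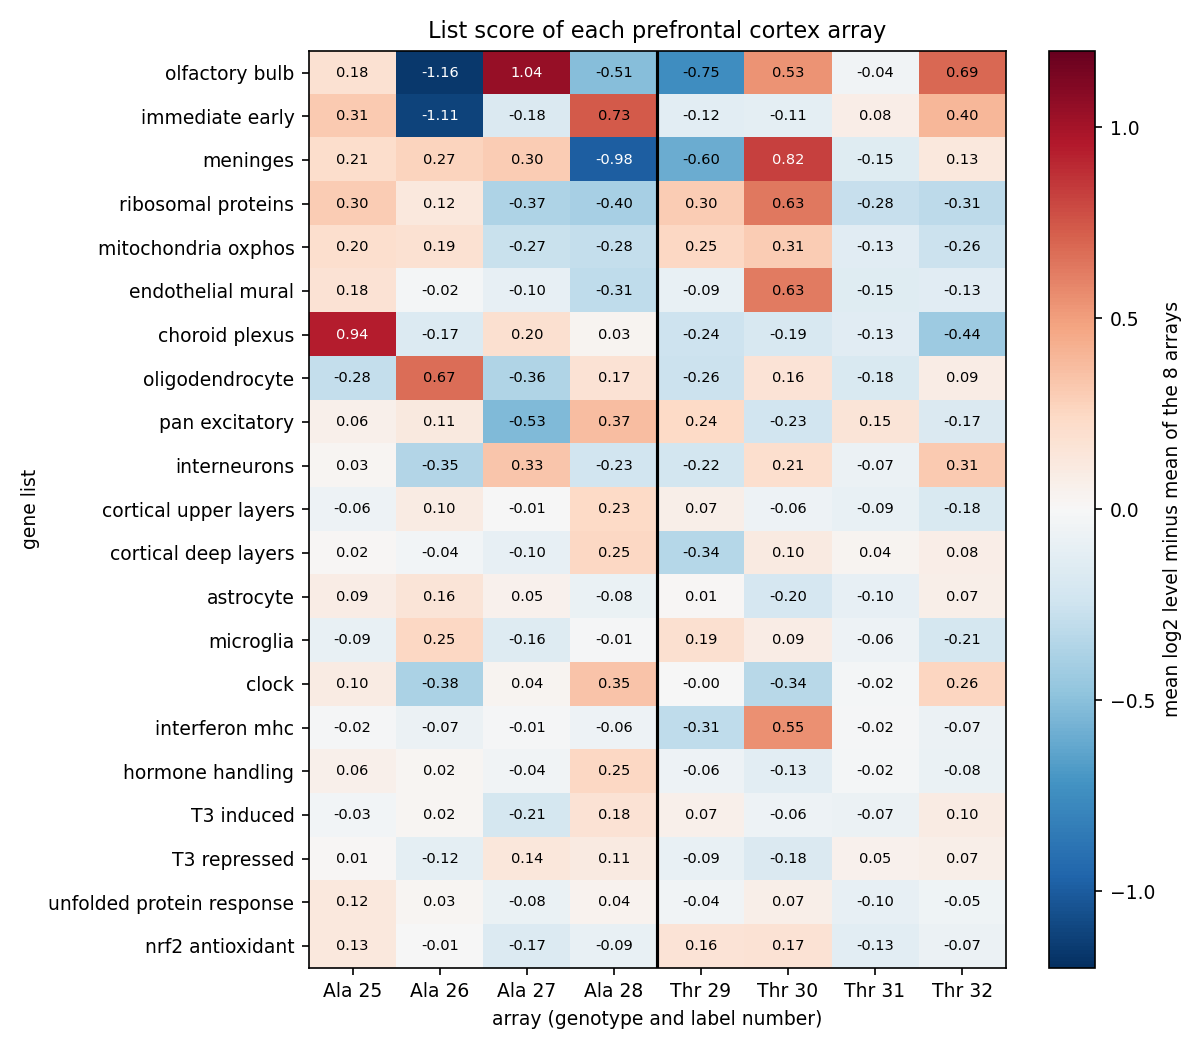
Score of 21 gene lists (rows) on each array (columns), Ala left and Thr right of the black line, as the mean log2 signal of the list relative to its 8-array mean. The rows with the deepest colours, olfactory bulb from -1.16 to 1.04 and immediate early genes from -1.11 to 0.73, have high and low arrays within a genotype.

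Genome-wide, arrays of the same genotype were no more alike than arrays of different genotypes. Pearson's r across genes averaged 0.984 over 12 pairs within a genotype and 0.985 over 16 pairs between genotypes, given as a description because pairs share arrays. The highest r, 0.991, joined Ala array 27 to Thr array 32. The median SD of a gene was 0.28 within Ala and 0.31 within Thr (n = 4 each).

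The genotype difference in prefrontal cortex was then set against its mean in the other 4 regions, in a limma fit of all 40 arrays. No gene was called (0 of 13599), and 271 had an unadjusted p under 0.05 (1.99%). Cd59a differed by 1.51 in prefrontal cortex and by 1.30 on average elsewhere, Mid1 by -1.48 in prefrontal cortex and -1.32 elsewhere, and Zfp976 by -0.92 in prefrontal cortex and -1.03 elsewhere. These 3 genes had the same sign in every region. They were singled out with earlier results of the series known, so the shared sign repeats their choice and is no separate support. The labels do not say whether regions came from the same mice, and the fit treated the 40 arrays as independent. The regions may therefore not be separate evidence. The brighter row of Ddit3 was also negative in all, at -0.52 in prefrontal cortex and between -0.84 in striatum and -0.06 in cerebellum elsewhere. Its dimmer row, at 0.15 in prefrontal cortex, was not examined in the other regions.

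Klhl14 differed by -1.45 in prefrontal cortex and by -0.11 on average elsewhere, a gap of -1.33 ± 0.41 (limma adjusted p = 1.00). Ttr differed by 3.84 in prefrontal cortex, 3.18 in striatum, 1.43 in amygdala, -1.18 in hippocampus and -4.58 in cerebellum, each with an SE of 1.96 in the 40-array fit, so its sign was not shared. The other genes with the lowest p for the gap were Pdcd10 (-1.03 ± 0.29), Ddah2, 2610528A11Rik and 4632415L05Rik with negative gaps. Dppa5a, Olfr110, Zbed4, Olfr1226 and the glycine receptor subunit gene Glra1 had positive gaps. Of these genes, Ddah2, Dppa5a, Olfr110, Olfr1226 and Glra1 had means under the negative control median in prefrontal cortex, at 5.55, 4.92, 5.38, 4.87 and 5.81. None of the gaps passed the adjusted threshold.

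**Figure D5:**
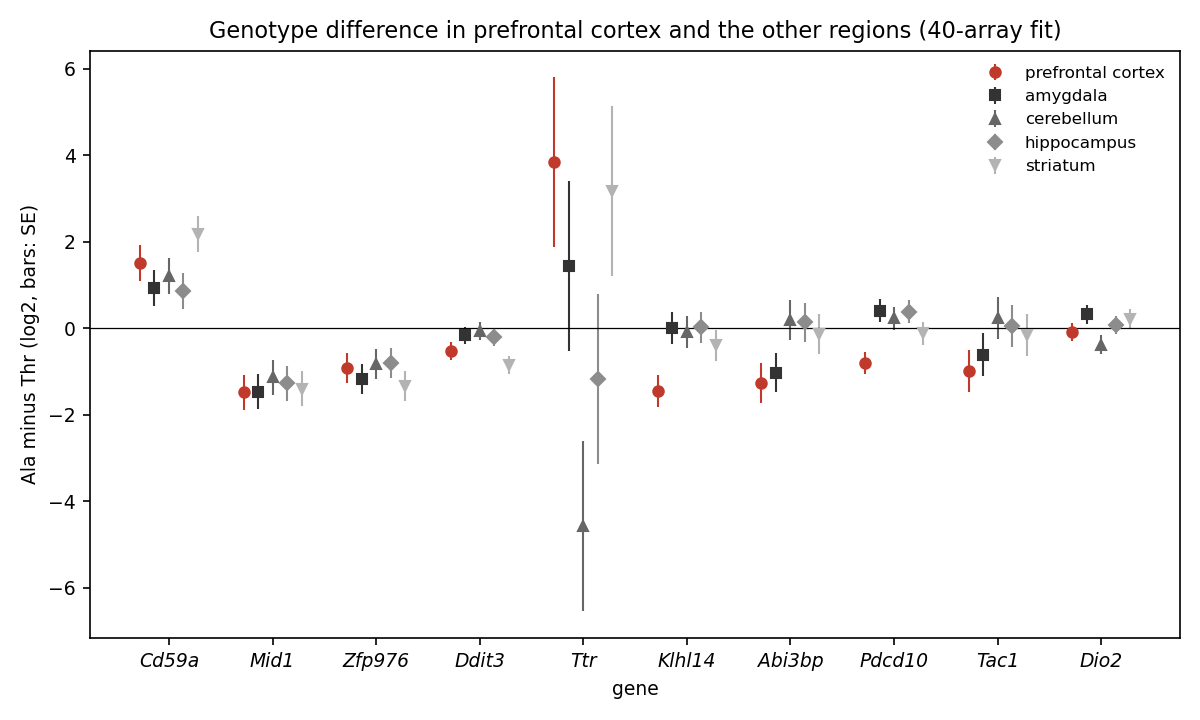
Ala minus Thr difference (log2) of 10 genes in prefrontal cortex (red circles) and the other 4 regions (grey symbols), from the fit of all 40 arrays; bars are SE. Cd59a, Mid1 and Zfp976, singled out with earlier results of the series known, lie on 1 side of 0 in every region. Klhl14 departs from 0 mainly in prefrontal cortex (-1.45), and Ttr runs from -4.58 to 3.84.

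The genes that neighbour Dio2 on its chromosome were examined because the genotypes differ at that locus. Among the 100 tested genes nearest to it, 50 on each side, 52 had positive and 48 negative differences, with a median of 0.02 and 0 called. At an unadjusted p under 0.05 there were 4 (4%, against 1.89% of all genes). They were Batf (0.47 ± 0.19) and Trip11 (0.48 ± 0.20), with positive differences, and Flvcr2 (-0.47 ± 0.19) and Gm5039 (-0.61 ± 0.19), with negative ones. Batf and Flvcr2 had means under the negative control median.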

How the data were processed

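The authors deposited log2 signals from Affymetrix arrays, made with RMA per the submitters' processing notes. RMA includes background correction, quantile normalization and probe summaries, so no scaling was added (array medians 6.12 to 6.25). The software version is not given in the sources used here. Rows were named through the platform annotation, and of several rows of a gene (55 genes) the brightest over the 8 arrays was used. Genes with a mean above the 30th percentile (4.47) entered a linear model of the 8 arrays (lmFit, eBayes with a trend; limma 3.58.1, R 4.3.3), with calls at an adjusted p under 0.05 (Benjamini-Hochberg). Comparisons between regions used all 40 arrays. Limma adjusted p-values in the text come from these fits.

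The members and the 33 gene lists were chosen with earlier results of these data known. Of 690 list entries, 576 were tested. Named genes were the 12 lowest p per direction above the negative control median (leaving out predicted, Rik, olfactory, vomeronasal and miRNA symbols), a fixed set around Dio2, up to 4 members of lowest p per list, and the 5 lowest p per direction for the difference between regions. Genes named for their spread, a difference of at least 1, their place near Dio2 or their region were chosen after their values were seen. Cd59a, Mid1 and Zfp976 were singled out with earlier results of the series known.

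In data simulated for this comparison (13599 genes), 0%, 44%, 96% and 100% of 50 genes changed by 0.5, 1, 2 and 4 log2 units were called. Of the unchanged genes, 6 were called. The genes of every size were changed in the same simulated data, so those called at 2 and 4 eased the adjusted threshold for the rest. A gene changed alone would face a stricter threshold, and the shares may be too high for it. The noise was normal and independent between genes. Variation that many genes share on an array, as the olfactory genes do here, was not simulated, so these shares need not hold for the real arrays. Alternatives covered scaling, filters, rows, the spread estimate, array weights, tissue scores as covariates and leaving out arrays.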

Additional observations from a re-analysis of the deposited data

Results flagged for a closer look

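Single arrays stood apart from the other 3 of their genotype in 16 of 248 groups of 4 tested with Dixon's criterion, where chance gives about 1 in 20, or 12.4. On Ala array 27, Ddit3 (8.36), Batf (5.53) and Aif1 (6.55) were below the other Ala arrays, and Crh (6.30) and Dppa5a (5.37) above them. On Ala array 26, Nr4a1 (7.98) and Ero1b (7.94) were the low values. On Ala array 28, Slc7a5 (11.50) was high and the meningeal list score (-0.98) low. On Thr array 29, Pnma3 (8.05) and Thra (15.00) were high and the deep-layer list score (-0.34) low. On Thr array 30, Tagln (8.22) and the endothelial and mural list score (0.63) were high. On Thr array 32, Rasd2 (8.42) and the list score of corticosteroid receptors and targets (0.15) were high. The brighter row of Ddit3 had negative differences with or without array 27.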

How the results depend on the processing

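No gene was called in prefrontal cortex, nor for its gap to the other regions, under any of the alternatives run, adjusted p under 0.10 included. The number at an unadjusted p under 0.05 was 514 with no filter, 150 with a filter at the negative control median, and 208 to 389 with 1 array left out (389 without Thr array 32), against 257. For the gap it was 491 with no filter, against 271. The count of genes that mark the region was 3703 with no minimum difference and 727 to 773 with 1 prefrontal array left out, against 745. In all, 2469 of the values recomputed under alternatives kept their side and sign or moved by less than the limit set. That limit was the spread of the list score for list medians and 1.5 times for counts. Another 31 turned sign and 11 moved by more. Because no gene was called, a gene counted as kept whenever its sign held, whatever the change in size, so this count says little about stability. Of 91 named genes, 49 had a difference that moved by over 1.5 times or turned sign with some single array left out, none of them called with all arrays. Uncalled genes turned sign as follows, with the cause not tested. Leaving out 1 array gave -0.20 to 0.12 for Klf9, -0.21 to 0.11 for Usp33, -0.024 to 0.20 for Atf4, -1.04 to 0.56 for Nr4a1, -1.49 to 0.14 for Npas4, -1.47 to 0.10 for Acta2, -1.17 to 0.082 for Tagln, -1.09 to 0.19 for Ogn, -0.98 to 1.81 for Stoml3, -0.71 to 0.70 for Omp, -0.70 to 0.81 for Th and -0.17 to 0.078 for Slc17a7. With array weights Omp was -0.24 and Th -0.20, and with median centring Omp was -0.0070. Leaving out the array of each genotype farthest from its group (Ala 27 and Thr 30), chosen after seeing the data, gave 0.020 for Klf9, 0.15 for Usp33, -0.32 for Omp, -0.50 for Th and 0.14 for Tagln, a median of 0.17 for the unfolded protein response and 0.10 for ribosomal proteins. The other 2 alternatives chosen so were a covariate for the first against the last label numbers and a fit of all transcript rows, with 0 genes called in each. Of 33 list medians, 22 had both signs across the fits that left out 1 array, and 4 across scalings (striatum, microglia, clock and the ubiquitin list). Median shifts under the other scalings were -0.01 and -0.03. No analysis that paired the genotypes was possible because they share no replicate numbers. Regions could not be paired within mice either, because the labels tie no array to an animal.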
